A study of Mus musculus with 2 samples.

Results

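Basement membranes are thin sheets of extracellular matrix that surround muscle fibres, capillaries, vascular smooth muscle and nerves. Their laminins are heterotrimers of an alpha, a beta and a gamma chain, named after the chains they hold, and they assemble at the cell surface by binding integrins and dystroglycan. Nidogens and the heparan sulfate proteoglycan perlecan link the laminin polymer to the type IV collagen network. In skeletal muscle the alpha chain encoded by Lama2 is the characteristic chain of the fibre basement membrane, and its loss causes a congenital muscular dystrophy, while the chains encoded by Lama4 and Lama5 are typical of vessel walls.

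The 10 genes described here were the alpha chains Lama2, Lama4 and Lama5, the beta chains Lamb1 and Lamb2, the gamma chains Lamc1 and Lamc3, the nidogens Nid1 and Nid2, and Hspg2, which encodes perlecan. They were taken from a list of non-collagen basement membrane genes and not by their values, and all 10 were among the 27998 genes of both count matrices. UMIs, the unique molecular identifiers that count captured transcripts, were summed per cell class and tissue, and correlations were taken over single fibro-adipogenic progenitors (FAPs), defined as cells with at least 1 Pdgfra UMI and at least 50 Dcn UMIs. FAPs are the mesenchymal cells of the muscle interstitium, and they express Pdgfra, a growth factor receptor, and Dcn, the proteoglycan decorin.

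The data were single-cell RNA counts of mononuclear cells from C57BL/6J mouse muscle, 1 library of quadriceps, a limb muscle, and 1 library of diaphragm, the respiratory muscle. No genetic or drug treatment separated the groups, and the age of the animals was not given in the sources used here. Minced muscle was digested with collagenase B and dispase II, cells were taken from the interface of a Lympholyte-M gradient, cells of 5 animals per tissue were pooled, and viable cells were sorted by light scatter. Muscle fibres are not mononuclear cells and were not captured as cells, so their own laminin transcripts were not measured. With 1 library per tissue, the tissue cannot be told apart from the library and its pool of animals, no test across samples was possible, and every interval below covers counting error only.

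On the GRCm38 build (GENCODE annotation), Lama2 spans chr10:26980036-27619758 on the minus strand, Lama4 chr10:38965515-39110188 on the plus strand and Lama5 chr2:180176373-180225859 on the minus strand. Lamb1 spans chr12:31265234-31329644 and Lamb2 chr9:108479736-108490530, both on the plus strand. Lamc1 lies at chr1:153218922-153332786 on the minus strand and Lamc3 at chr2:31887291-31946539 on the plus strand. Nid1 lies at chr13:13437551-13512269, Nid2 at chr14:19751265-19811787 and Hspg2 at chr4:137468769-137570630, all on the plus strand.

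Promoter windows of 250 bases are shown for 4 genes on which the results below turn: Lamb1 and Lamb2, the beta chains with different levels across classes, Lama5, whose UMIs were mostly in smooth muscle-like cells, and Hspg2, which was found in each stromal class. Against the gene spans above, the Lama5 window lies just upstream of the start, and those of Lamb1, Lamb2 and Hspg2 reach past it into the gene. The sequences are from RefSeq on GRCm38.p6, 5′ to 3′ on the strand of the gene, at chr12:31265043-31265292 (plus), chr9:108479612-108479861 (plus), chr2:180225860-180226109 (minus) and chr4:137468553-137468802 (plus). Capitals mark GC boxes, the letters GGGCGG or the reverse complement CCGCCC.
Lamb1: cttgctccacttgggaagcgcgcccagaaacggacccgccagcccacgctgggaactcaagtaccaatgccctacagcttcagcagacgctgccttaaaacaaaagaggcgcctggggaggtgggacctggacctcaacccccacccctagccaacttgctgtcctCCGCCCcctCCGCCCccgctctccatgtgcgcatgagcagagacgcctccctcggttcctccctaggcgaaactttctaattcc
Lamb2: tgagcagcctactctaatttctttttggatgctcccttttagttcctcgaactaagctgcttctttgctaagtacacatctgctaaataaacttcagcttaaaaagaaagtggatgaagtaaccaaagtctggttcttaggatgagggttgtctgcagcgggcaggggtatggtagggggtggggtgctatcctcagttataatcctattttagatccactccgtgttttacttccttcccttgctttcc
Lama5: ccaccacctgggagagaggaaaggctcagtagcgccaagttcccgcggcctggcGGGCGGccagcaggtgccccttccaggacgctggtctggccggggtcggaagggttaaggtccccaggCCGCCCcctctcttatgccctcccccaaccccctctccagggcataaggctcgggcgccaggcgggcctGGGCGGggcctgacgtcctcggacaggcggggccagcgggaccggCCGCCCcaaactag
Hspg2: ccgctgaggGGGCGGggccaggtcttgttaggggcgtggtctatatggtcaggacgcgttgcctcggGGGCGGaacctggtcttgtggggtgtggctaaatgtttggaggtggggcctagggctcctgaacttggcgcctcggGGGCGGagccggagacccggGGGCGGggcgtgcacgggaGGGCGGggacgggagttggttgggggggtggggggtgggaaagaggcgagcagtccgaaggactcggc
A GC box was present in 32.7% of the 32851 promoters of this length in the table. The Lama5 window held 4 and the Hspg2 window 5, with a GC content of 72.4% and 70.0%. The Lamb1 window held 2 GC boxes at 62.0% GC, whereas the Lamb2 window held 0 at 43.6% GC. Windows were matched for 6 of the 10 genes, and the Lama2 window held 0 and the Nid1 window 1. The Lama2 window lies inside the gene span given above and the Nid1 window reaches past its start. The counts of GC boxes are therefore not from like regions. These letters are a description of the sequence and no binding was measured.

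The quadriceps library held 5159 barcodes and the diaphragm library 2499, and 5010 and 2430 were kept, with medians of 9880.5 and 11983.5 UMIs. Over 5% of UMIs were mitochondrial in 56.7% and 31.6% of kept barcodes, among them 99.7% of smooth muscle-like cells of quadriceps and 22.1% of FAPs there, and no limit was set on this share. The libraries shared 5 barcode sequences. The gate for FAPs took 2339 quadriceps and 2008 diaphragm cells, of which 105 and 4 lay in clusters named as another type, which left 2234 and 2004 cells called FAPs below. All 10 FAP markers were detected in these FAPs, with a summed level of 39417 CPM (counts per 1000000 non-mitochondrial UMIs of the class) in quadriceps and 37403 CPM in diaphragm. The 8 smooth muscle markers summed to 79674 and 59905 CPM in smooth muscle-like cells, and the 10 endothelial markers to 9216 CPM in endothelial-like cells of quadriceps, with none at 0. Pdgfra and Dcn of the gate are among the FAP markers, and clusters were named from these same marker lists. The sums therefore describe the classes and are no separate check of their names. Other classes were named by their markers, as smooth muscle-like (1156 and 40 cells), satellite cell-like (204 and 20), Schwann cell-like (179 and 2), endothelial-like (59 and 10), tenocyte-like (113 and 0), macrophage or monocyte-like (84 and 14) and lymphoid cells. Classes of at least 20 cells in a tissue are described. Since 3′ transcript ends were counted, CPM values are not scaled by transcript length.

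Among the captured cells, FAPs held most UMIs of most of the 10 genes in both libraries, and smooth muscle-like cells held nearly all Lama5. In quadriceps, FAPs were 44.6% of kept cells but contributed 88.9% of Lama2 UMIs, 88.9% of Nid2, 88.7% of Nid1, 87.3% of Lamb1, 79.7% of Lama4, 78.6% of Lamc1 and 72.4% of Hspg2. Lamb2 was shared between FAPs (47.7%) and smooth muscle-like cells (43.9%). Of 2433 Lama5 UMIs in quadriceps, 2241 (92.1%) were in smooth muscle-like cells and 0.945% in FAPs. In diaphragm FAPs were 82.5% of kept cells and contributed from 91.3% (Lamb2) to 96.5% (Nid1) of UMIs of the genes other than Lama5 and Lamc3. FAPs held 24712451 non-mitochondrial UMIs in diaphragm and 23472294 in quadriceps. The whole libraries held 28545242 and 50854519 UMIs, mitochondrial ones included. The high diaphragm shares are therefore not read as enrichment. The 40 smooth muscle-like cells of diaphragm (1.65% of cells) held 57 of 63 Lama5 UMIs (90.5%). Ranked by CPM among named classes and FAPs, 5 of the 10 genes were highest in FAPs in quadriceps and 7 in diaphragm. Fewer classes reached 20 cells in diaphragm. Over 8 alternatives the counts were 5 in quadriceps and 6 to 10 in diaphragm. The share of all genes that were highest in FAPs was not counted, so these counts are not read as high or low.

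**Figure D1:**
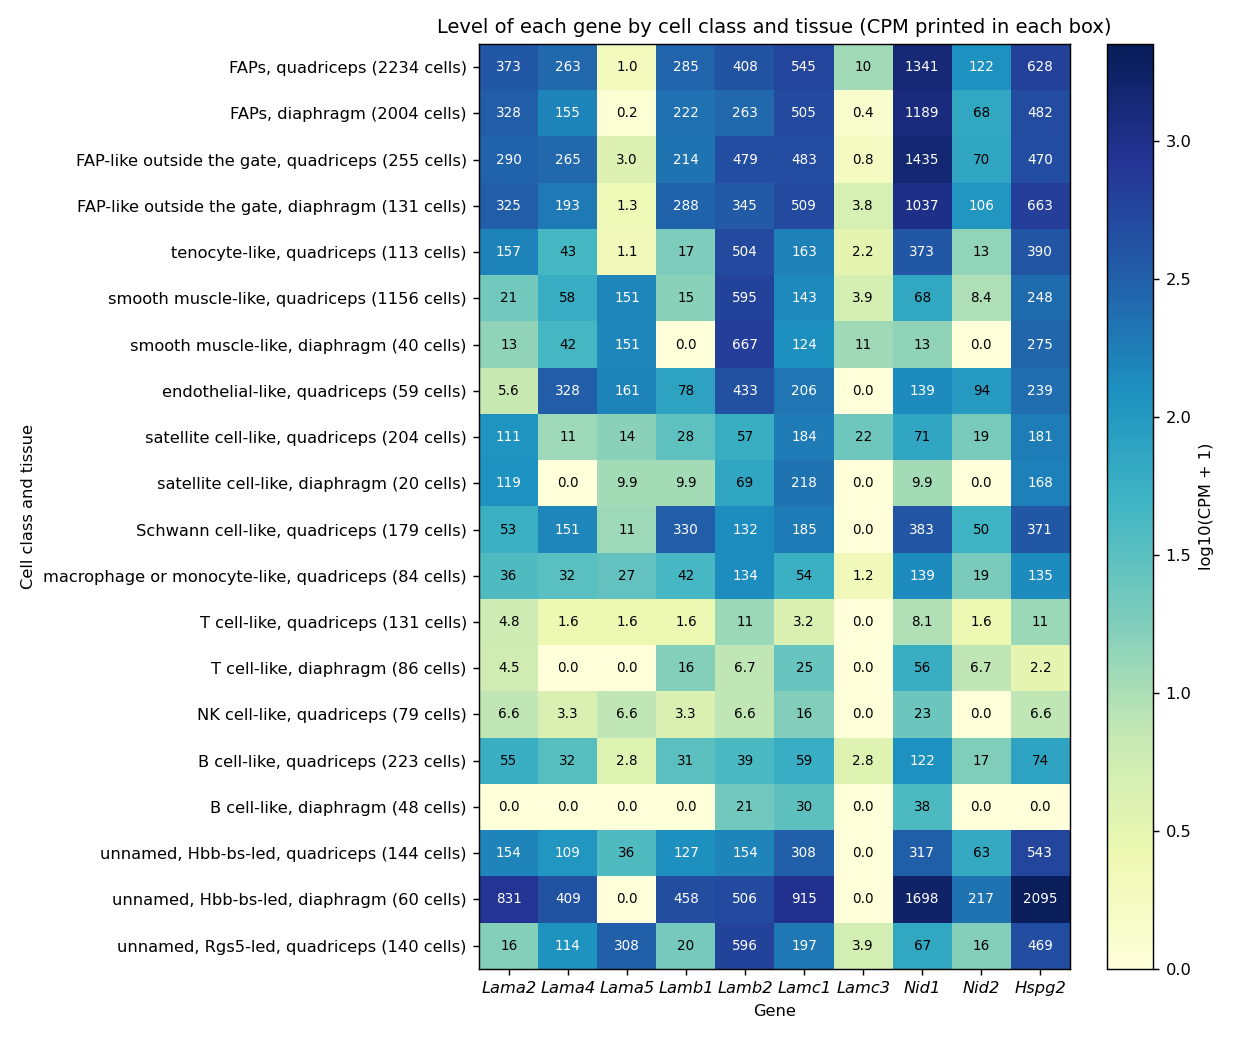
Heat map of the level of the 10 genes (columns) in each cell class and tissue with at least 20 cells (rows), where colour is log10 of CPM + 1 and the CPM is printed in each box. FAPs of quadriceps and diaphragm show Nid1 at 1341 and 1189 CPM and Lama5 at 0.980 and 0.162 CPM, whereas smooth muscle-like cells show Lama5 at 151.4 and 150.8 CPM.

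Of the alpha chains, Lama2 was higher in FAPs than in each named class of another type. Its level was 373.5 CPM in quadriceps FAPs (8766 UMIs, interval 366 to 381) and 328.0 CPM in diaphragm FAPs (8105 UMIs, interval 321 to 335). FAP-like cells that failed the gate came next, at 290 and 325 CPM. The next classes were tenocyte-like cells at 157 CPM (145 UMIs) and satellite cell-like cells, the stem cells of the fibre that lie beneath its basement membrane, at 111 CPM in quadriceps (110 UMIs, interval 91.3 to 134) and 119 CPM in diaphragm (12 UMIs, interval 61.4 to 208). These satellite cell-like levels overlapped in their intervals. Smooth muscle-like cells had 20.7 CPM in quadriceps, or 8.07 CPM once the 54 cells that passed the FAP gate were left out, and 13.2 CPM in diaphragm (5 UMIs).

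Lama4, the alpha chain typical of capillaries, was present in several stromal classes. It reached 328 CPM in endothelial-like cells of quadriceps (59 UMIs, interval 249 to 423) and 263.5 CPM in quadriceps FAPs (6184 UMIs, interval 257 to 270), levels whose intervals overlapped. The endothelial-like level came mostly from a cluster with lymphatic genes, described below. The other endothelial-like cluster, with Pecam1, had 63.0 CPM (6 UMIs, interval 23.1 to 137). Diaphragm FAPs had 155.2 CPM (3836 UMIs) and Schwann cell-like cells, the glia of nerves, 151 CPM (153 UMIs, interval 128 to 177), which also overlapped. Smooth muscle-like cells had 58.3 and 42.3 CPM, tenocyte-like cells 43.4 CPM and satellite cell-like cells 11.1 CPM in quadriceps and 0 UMIs in diaphragm, where 3 UMIs would be 29.7 CPM.

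Lama5, which encodes the alpha chain of mature vessel walls and epithelia, had the reverse pattern. Endothelial-like cells of quadriceps had 161 CPM (29 UMIs, interval 108 to 231), smooth muscle-like cells of quadriceps 151.4 CPM (2241 UMIs, interval 145 to 158) and of diaphragm 150.8 CPM (57 UMIs, interval 114 to 195), and these 3 intervals overlapped. FAPs had 23 UMIs in 2234 cells of quadriceps (0.980 CPM) and 4 UMIs in 2004 cells of diaphragm (0.162 CPM). Ungated lymphoid cells, taken as cells that should lack the gene, had 3.22 CPM in quadriceps (5 UMIs) and 0 UMIs in 139 cells of diaphragm, where 3 UMIs would be 4.30 CPM, so the FAP levels are read as background and no exact fold is given against them. With each cell thinned to 1000 UMIs, a Lama5 UMI was found in 0.0895% of quadriceps FAPs (median 10649 UMIs before thinning) and in 0.706% of 425 lymphoid cells (median 3532 UMIs), against 12.98% of smooth muscle-like cells of quadriceps.

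The beta chains divided the classes differently. Lamb1, which encodes the widely used beta chain of developing and interstitial basement membranes, was 330 CPM in Schwann cell-like cells of quadriceps (335 UMIs, interval 296 to 368), 285.0 CPM in quadriceps FAPs (6690 UMIs, interval 278 to 292) and 221.9 CPM in diaphragm FAPs (5484 UMIs, interval 216 to 228). It was 77.8 CPM in endothelial-like cells, 28.3 CPM in satellite cell-like cells, 17.4 CPM in tenocyte-like cells and 14.5 CPM in smooth muscle-like cells of quadriceps. Without the gated cells the smooth muscle-like value was 3.30 CPM, and in diaphragm it was 0 UMIs in 40 cells, where 3 UMIs would be 7.94 CPM. Tenocyte-like cells without their 24 gated cells had 12.8 CPM (interval 5.52 to 25.2), which did not overlap that smooth muscle-like value (interval 2.41 to 4.42). The satellite cell-like value was 10.9 CPM without its 4 gated cells.

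Lamb2, the beta chain of vessel walls and of the neuromuscular junction, was high in smooth muscle-like, tenocyte-like and endothelial-like cells but low in satellite cell-like cells. It was 667 CPM in smooth muscle-like cells of diaphragm (252 UMIs, interval 587 to 754) and 594.5 CPM in those of quadriceps (8798 UMIs, interval 582 to 607), which overlapped, and 504 CPM in tenocyte-like cells (465 UMIs, interval 460 to 552). Endothelial-like cells had 433 CPM (78 UMIs, interval 342 to 541), which overlapped the 407.6 CPM of quadriceps FAPs (9567 UMIs, interval 399 to 416). Diaphragm FAPs had 263.4 CPM (6510 UMIs), Schwann cell-like cells 132 CPM, and satellite cell-like cells 56.5 and 69.3 CPM in quadriceps and diaphragm. Lamb2 was the member whose level differed least between quadriceps FAPs and smooth muscle-like cells, with a log2 difference of 0.54 (interval 0.50 to 0.59).

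Lamc1, the gamma chain of most laminins, was found in each stromal class. FAPs had 545.5 CPM in quadriceps (12804 UMIs, interval 536 to 555) and 505.0 CPM in diaphragm (12481 UMIs, interval 496 to 514). Endothelial-like cells had 206 CPM, Schwann cell-like cells 185 CPM, satellite cell-like cells 184 and 218 CPM, tenocyte-like cells 163 CPM and smooth muscle-like cells 143 and 124 CPM. Lamc3, a gamma chain of restricted distribution, had few UMIs anywhere: 22.2 CPM in satellite cell-like cells of quadriceps (22 UMIs, interval 13.9 to 33.6), 10.4 CPM in quadriceps FAPs (243 UMIs, interval 9.09 to 11.7), 3.92 CPM in smooth muscle-like cells of quadriceps (58 UMIs) and 0.364 CPM in diaphragm FAPs (9 UMIs, interval 0.167 to 0.691). The satellite cell-like value was 22.9 CPM without the 4 gated cells of that cluster.

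Nid1 was the highest of the 10 genes in FAPs, at 1341 CPM in quadriceps (31472 UMIs) and 1189 CPM in diaphragm (29373 UMIs), in counts that are not scaled by length. Schwann cell-like cells had 383 CPM (389 UMIs, interval 346 to 423) and tenocyte-like cells 373 CPM (344 UMIs, interval 335 to 415), levels that overlapped. Endothelial-like cells had 139 CPM (79.3 CPM without the 1 gated cell) and satellite cell-like cells of quadriceps 70.7 CPM (29.5 CPM without 4 gated cells). Smooth muscle-like cells had 68.1 CPM in quadriceps and 13.2 CPM in diaphragm, and without the 54 gated cells the quadriceps value was 13.3 CPM. Nid2, the second nidogen, was 121.8 CPM in quadriceps FAPs (2858 UMIs), 94.4 CPM in endothelial-like cells (17 UMIs, interval 55.0 to 151), which overlapped, and 68.2 CPM in diaphragm FAPs (1685 UMIs). It was 50.3 CPM in Schwann cell-like cells and 8.38 CPM in smooth muscle-like cells of quadriceps (2.64 CPM without gated cells).

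Perlecan was found in each stromal class. Hspg2 was 627.9 CPM in quadriceps FAPs (14738 UMIs, interval 618 to 638) and 481.7 CPM in diaphragm FAPs (11904 UMIs, interval 473 to 490). Tenocyte-like cells had 390 CPM and Schwann cell-like cells 371 CPM, with overlapping intervals (351 to 433 and 334 to 410). Smooth muscle-like cells had 248 and 275 CPM, endothelial-like cells 239 CPM (43 UMIs, interval 173 to 322) and satellite cell-like cells 181 and 168 CPM. In T cell-like cells of quadriceps it was 11.3 CPM (7 UMIs).

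The differences between classes were counted as folds past 2, on log2(CPM + 1), over genes that reached 50 CPM in either class. In smooth muscle-like cells of quadriceps 9 of the 10 genes passed the filter, 1 was past 2-fold higher than in FAPs (Lama5, log2 6.27) and 7 past 2-fold lower, where 20.3% and 24.2% of all 4082 genes were so. The largest negative differences were Nid1 (-4.28), Lamb1 (-4.20) and Lama2 (-4.11), and without the 54 gated cells they were -6.55, -6.06 and -5.37. Lama2, Lamb1 and Nid2 passed the filter only through FAPs, where they are high, so their calls as lower follow from the filter. Lama5 passed the filter only through the other class, so its call as higher follows from the filter. Since Lama5 in FAPs is read as background, its difference depends on the pseudocount, and other settings gave 3.88 to 7.13 for quadriceps and 3.98 to 9.17 for diaphragm. In diaphragm 2 of 9 genes were higher, Lama5 (7.03) and Lamb2 (1.34, interval 1.15 to 1.52), and 6 were lower, where 25.1% and 24.6% of 4111 genes were so. Of these lower genes, all but Lamc1 passed the filter only through FAPs. Endothelial-like cells had 1 higher (Lama5, 6.36) and 5 lower of 9, where 25% and 14.6% of 4520 genes were so. Among these lower genes Lama2 passed the filter only through FAPs. Schwann cell-like cells had 0 higher and 5 lower of 8 (18.6% and 17% of all genes) and tenocyte-like cells 0 higher and 6 lower of 8 (7.14% and 10.3%). In tenocyte-like cells Lama4, Lamb1 and Nid2 passed the filter only through FAPs. In satellite cell-like cells 8 of 8 genes were past 2-fold lower than in FAPs in each tissue, where 22.4% of all genes were so in quadriceps and 30.6% in diaphragm, and 12.2% and 16.8% were higher. Among them Lama4, Lamb1 and Nid2 passed the filter only through FAPs in each tissue, and so did Nid1 in diaphragm. Macrophage or monocyte-like cells had 0 higher and 8 lower of 8 (18.6% and 21.8% of all genes). Their Nid1 level was 139 CPM with and 9.83 CPM without 8 gated cells. In this class Lama2, Lama4, Lamb1 and Nid2 passed the filter only through FAPs. For every class, calls of genes that passed only through FAPs are not read as support for a lower level.

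Chain shares, the percentage of all alpha chain or beta chain UMIs of a class that each chain gene held, separated the classes without reference to total UMIs. They compare classes and are not molar ratios, since 3′ capture differs between genes. In FAPs Lama2 was 58.5% of alpha chain UMIs in quadriceps (interval 57.7 to 59.3) and 67.8% in diaphragm (interval 67.0 to 68.7), and Lama4 was 41.3% and 32.1%. In smooth muscle-like cells Lama5 was 65.5% in quadriceps (interval 63.9 to 67.1) and 73.1% in diaphragm (interval 61.8 to 82.5). Schwann cell-like cells had mostly Lama4 (70.2%, interval 63.6 to 76.2), and tenocyte-like and satellite cell-like cells of quadriceps mostly Lama2 (72.9%, interval 66.1 to 78.9, and 74.3%, interval 66.5 to 81.1).

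Beta chain UMIs of smooth muscle-like cells were almost all Lamb2, 97.6% in quadriceps (interval 97.3 to 97.9) and 252 of 252 in diaphragm. Tenocyte-like cells were alike, with 96.7% Lamb2 (interval 94.7 to 98.1). Schwann cell-like cells stood at the other end, with 70.7% Lamb1 (interval 66.4 to 74.7), and FAPs lay between, with 41.0% Lamb1 in quadriceps (interval 40.3 to 41.8) and 45.7% in diaphragm (interval 44.8 to 46.6). Nid1 was 91.7% and 94.6% of nidogen UMIs in FAPs and 59.5% in endothelial-like cells of quadriceps (interval 43.3 to 74.4). Without their 1 gated cell, these endothelial-like cells had 13 Nid1 and 16 Nid2 UMIs. The beta chain UMIs of lymphoid cells were mostly of Lamb3, which is not among the 10 genes, at 67.3% in B cell-like cells of quadriceps (interval 59.3 to 74.7).

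**Figure D2:**
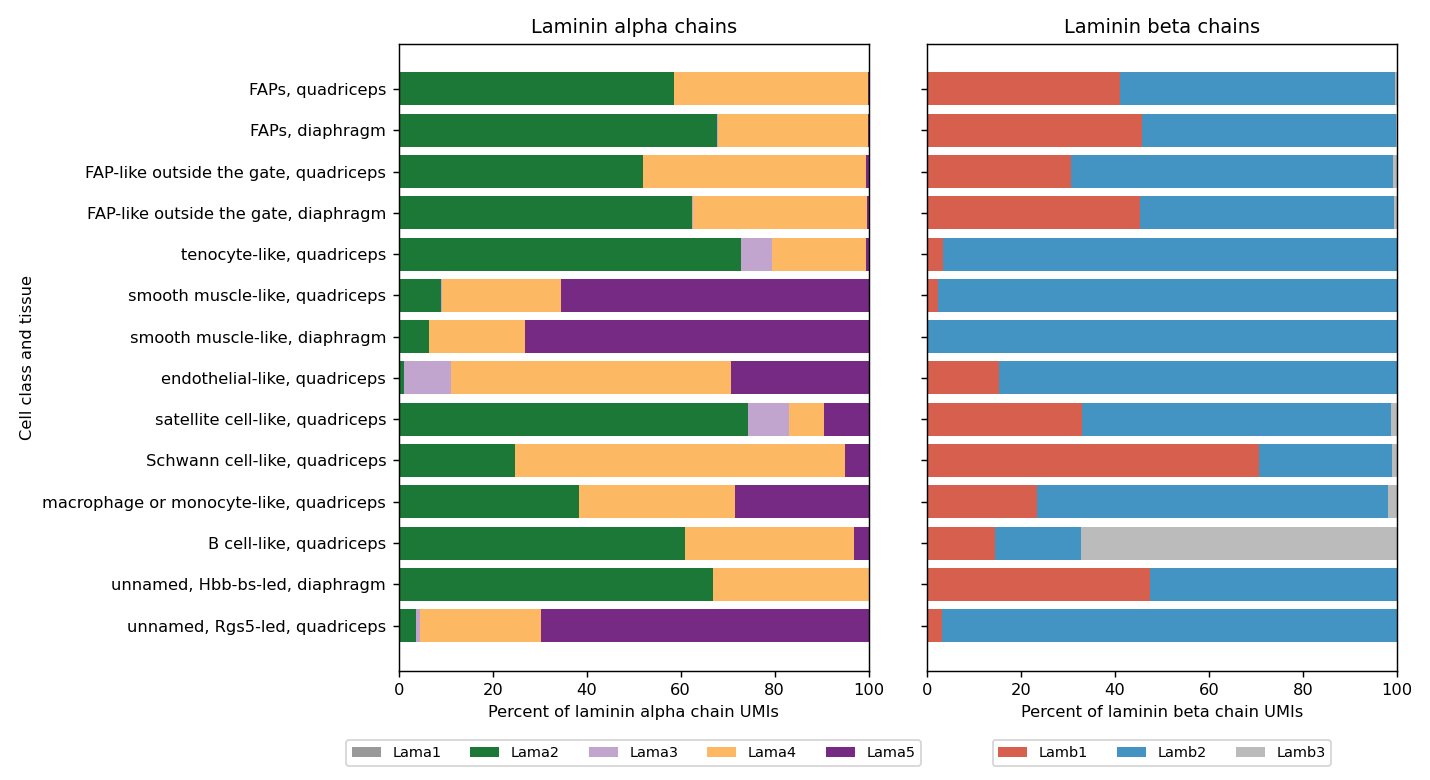
Stacked bars of the percentage of alpha chain UMIs (Lama1 to Lama5) and of beta chain UMIs (Lamb1 to Lamb3) held by each chain, for classes with at least 20 cells and at least 50 such UMIs in a tissue. Lama5 fills 65.5% of the alpha bar of quadriceps smooth muscle-like cells and 0.154% of that of quadriceps FAPs, while Lamb1 fills 70.7% of the beta bar of Schwann cell-like cells and Lamb2 97.6% of that of quadriceps smooth muscle-like cells.

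The endothelial-like class joined 2 quadriceps clusters with different laminins. A cluster of 39 cells led by Cytl1, with the endothelial adhesion gene Pecam1, had all 29 Lama5 UMIs (305 CPM, interval 204 to 437), 672 CPM of Lamb2 (interval 518 to 858) and 63.0 CPM of Lama4 (6 UMIs, interval 23.1 to 137). A cluster of 20 cells with the lymphatic genes Mmrn1 and Lyve1 had 0 Lama5 UMIs, 625 CPM of Lama4 (53 UMIs, interval 468 to 817) and 165 CPM of Lamb2 (interval 90.2 to 277). In that cluster 3 UMIs would be 35.4 CPM. Nid1 was 31.5 and 259 CPM and Nid2 21.0 and 177 CPM in the 2 clusters, and Hspg2 was 242 and 236 CPM. The lymphatic-gene cluster held the 1 gated cell of the class, and without it Nid1 was 146 CPM (10 UMIs, interval 69.8 to 268), Nid2 204 CPM, Hspg2 189 CPM and Lama4 757 CPM there. These genes were not used in the clustering. The counts are small, and FAP markers summed to 4327 CPM in the endothelial-like class with that cell.

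Smooth muscle-like cells of quadriceps also formed 2 clusters, of 734 cells led by Olfr558 and 422 cells led by Timp4. Both had the chain pattern given above, with Lama5 at 147 and 159 CPM and Lamb2 at 576 and 623 CPM. The FAP-typical genes were higher in the Timp4-led cluster, Nid1 at 159 against 9.56 CPM and Lama2 at 42.1 against 6.89 CPM. Without the gated cells the whole class had 13.3 CPM of Nid1 and 8.07 CPM of Lama2. Between tissues, smooth muscle-like cells differed by log2 -0.01 in Lama5 (interval -0.41 to 0.37), 0.17 in Lamb2 and 0.15 in Hspg2. Only Nid1 was past 2-fold, where 7.57% of 3474 genes were (4.84% higher and 2.73% lower), and it had the gated cells just described.

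Receptors of laminin, which were listed beside the 10 genes, were mostly low in FAPs. In smooth muscle-like cells of quadriceps 4 of the 5 listed receptors that passed the filter were past 2-fold above FAPs: Bcam, a receptor of the Lama5 chain, at 923 CPM, Mcam, an adhesion receptor of vessel walls that binds the Lama4 chain, at 545 CPM, Itgb1, the beta subunit of most laminin integrins, at 1158 CPM, and Itga7, a muscle laminin integrin, at 164 CPM. The same 4 genes were higher in diaphragm. Bcam, Mcam and Itga7 had 3.75, 2.85 and 1.58 CPM in quadriceps FAPs and passed the filter only through smooth muscle-like cells. Their call as higher therefore follows from the filter. Of all 4082 genes tested in quadriceps, 20.3% were past 2-fold higher. In Schwann cell-like cells 5 of 6 were higher, among them Dag1, which encodes dystroglycan, at 726 CPM, and the partner subunits Itga6 at 323 CPM and Itgb4 at 244 CPM. Itga6 and Itgb4 had 2.64 and 0.809 CPM in quadriceps FAPs, so they too passed only through the other class. Of all 4293 genes tested there, 18.6% were past 2-fold higher. Dag1 was 935 CPM in satellite cell-like cells of quadriceps and 961 CPM in those of diaphragm. In FAPs only Dag1 (149 and 132 CPM) and Itgb1 (389 and 311 CPM) reached the filter.

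Of the other listed laminin chains, Lama1 had 0 UMIs in every class, and Lama3 (0.469 CPM in quadriceps and 0.121 CPM in diaphragm) and Lamb3 did not reach 50 CPM in FAPs. Lama3, an alpha chain of epithelia, reached 55.5 CPM in endothelial-like cells of quadriceps (10 UMIs, interval 26.6 to 102), past 2-fold above FAPs, and held 10.1% of alpha chain UMIs there (interval 4.95 to 17.8). It passed the filter only through that class, so its call as higher follows from the filter. Of the 8 collagens of the basement membrane, 6 passed the filter in smooth muscle-like cells of quadriceps and 1 was past 2-fold higher there than in FAPs, Col18a1 at 320 CPM against 77.7 CPM, and 2 were past 2-fold lower, Col15a1 (24.9 and 521 CPM) and Col4a4 (5.00 and 60.2 CPM). Col15a1 and Col4a4 passed the filter only through FAPs. Of 12 other basement membrane proteins, 7 passed, 1 was higher and 4 lower. The higher gene, Tinagl1, whose product is a matricellular laminin-binding protein, was 969 CPM in smooth muscle-like cells and 655 CPM in endothelial-like cells. It had 3.79 CPM in quadriceps FAPs, so it passed the filter only through the other class. Of 9 genes for the glycosylation of dystroglycan, which makes it able to bind laminin, 3 passed in smooth muscle-like cells of quadriceps, 1 higher and 1 lower. Of all 4082 genes tested there, 20.3% were past 2-fold higher and 24.2% lower, and these small counts are not read as a trend.

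FAPs of the tissues were then compared, since both libraries held over 2000 of them. All 8 genes that passed the filter (50 CPM in the higher tissue) were lower in diaphragm, and 0 of them were past 2-fold, where 6.38% of 3431 genes were, 3.5% higher and 2.89% lower. The median log2 difference, diaphragm over quadriceps, was -0.37 over these 8 genes and -0.10 over all genes tested. Most genes tested were thus also lower in diaphragm, and the direction alone does not set the 8 genes apart. Nid2 (-0.83, interval -0.92 to -0.75), Lama4 (-0.76, interval -0.82 to -0.70) and Lamb2 (-0.63, interval -0.68 to -0.58) differed most. Hspg2 (-0.38, interval -0.42 to -0.35) and Lamb1 (-0.36, interval -0.41 to -0.31) were intermediate. Lama2 (-0.19, interval -0.23 to -0.14), Nid1 (-0.17, interval -0.20 to -0.15) and Lamc1 (-0.11, interval -0.15 to -0.08) lay nearest to the median of all genes. Lamc1 turned to 0.02 when the libraries were clustered separately.

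**Figure D3:**
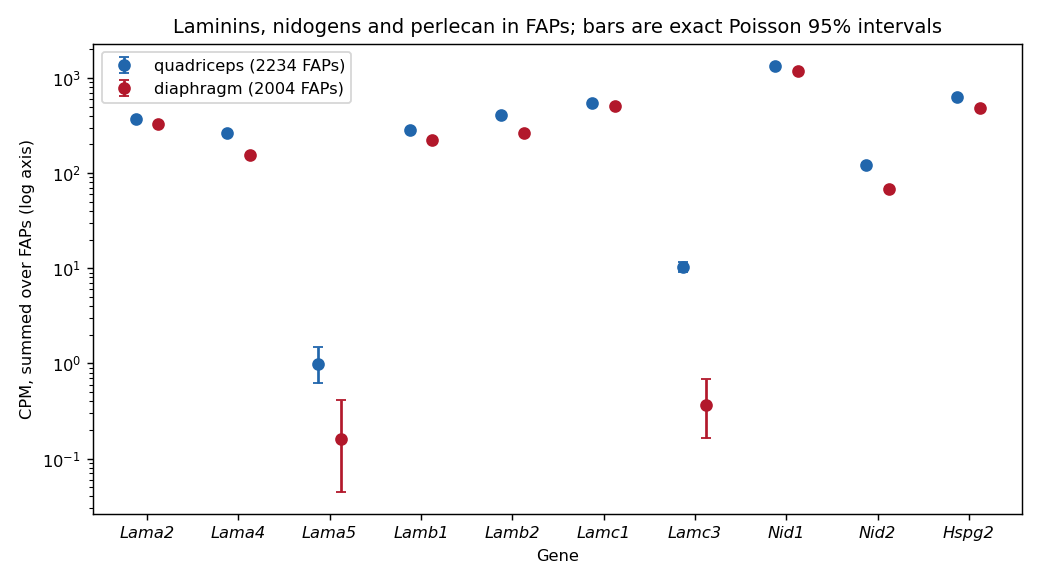
Level of the 10 genes in FAPs (CPM on a log axis), with blue points for 2234 quadriceps FAPs and red points for 2004 diaphragm FAPs and bars for exact Poisson 95% intervals. The red point is below the blue point for each of the 10 genes, and the gap is widest for Lamc3 (10.4 and 0.364 CPM) and Lama5 (0.980 and 0.162 CPM), both under the filter.

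Lama5 and Lamc3 did not pass the filter. The ratio of diaphragm to quadriceps was 0.165 for Lama5, on 4 and 23 UMIs at the background level given above, and 0.0352 for Lamc3, on 9 and 243 UMIs (log2 interval -5.98 to -3.88). The immediate early genes, a list of genes that rise quickly with stress and dissociation, differed far more than the laminins in the same cells: 8 of 8 were past 2-fold higher in diaphragm, with Fos at 253 CPM in quadriceps and 2814 CPM in diaphragm, and their part in the differences above was not tested. Markers of other cell types moved as well: the 8 tenocyte markers summed to 302 CPM in quadriceps FAPs and 1756 CPM in diaphragm FAPs, the 8 smooth muscle markers to 325 and 80.6 CPM, and the 7 mesothelial markers to 7.58 CPM, with 5 at 0 (Msln, Wt1, Lrrn4, Krt8 and Krt18), and 102 CPM, with none at 0. Without the FAP clusters led by Thbs4 and Slpi, whose leading genes held a marker of another type, 8 of 8 genes were still lower in diaphragm and 0 past 2-fold. The share of all genes that were lower was not counted there. Over the gated cells the correlation of Fos with the 8 genes ranged from -0.144 (Lamb2) to -0.0139 (Nid2) in quadriceps and from -0.161 (Hspg2) to -0.00962 (Nid1) in diaphragm, and it was -0.111 and -0.0920 with Lama4.

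The surrounding matrix genes did not move as a block in FAPs. Of the 8 basement membrane collagens 6 passed the filter, 1 was past 2-fold lower (Col18a1, 77.7 and 30.1 CPM, log2 -1.34), and the median log2 difference was -0.65. The type IV collagen genes Col4a1 (984 and 583 CPM) and Col4a2 (454 and 242 CPM) were lower in diaphragm by 0.75 and 0.90 on the log2 scale, within 2-fold, whereas Col15a1, a collagen of the outer basement membrane zone, was higher by 0.68 (521 and 833 CPM). Of 12 other basement membrane proteins 6 passed, and 1 was past 2-fold higher, Fbln1, encoding fibulin-1, at 268.5 CPM in quadriceps and 1110 CPM in diaphragm. Of the listed receptors and dystroglycan glycosylation genes 2 of 8 and 2 of 9 passed, with 0 past 2-fold. Of all 3431 genes tested, 3.5% were past 2-fold higher and 2.89% lower. Col18a1 passed the filter only through quadriceps.

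FAPs differ among themselves, and 10 subclusters were formed from them without the 10 genes and the other listed basement membrane genes. They were numbered by size and are named here by leading genes. The subcluster led by Cxcl14, Mme and Hsd11b1 (353 quadriceps and 203 diaphragm cells) was high in most of the 10 genes but not in Lamb2. In quadriceps it had 820 CPM of Lamb1 (interval 789 to 852), 735 CPM of Lama2 (interval 705 to 765), 933 CPM of Lamc1, 320 CPM of Nid2 and 1531 CPM of Hspg2. Its levels of all 5 genes were the highest of the 9 quadriceps subclusters with at least 20 cells, although the intervals of Lama2 and Hspg2 overlapped those of a subcluster led by Apod. In diaphragm the same subcluster had 422 CPM of Lamb1 (interval 396 to 451), 459 CPM of Lama2, 684 CPM of Lamc1, 152 CPM of Nid2 and 913 CPM of Hspg2, the highest of 7 subclusters except for Lamc1, which was 697 CPM in the Cmah-led subcluster.

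Lamc3 in FAPs was largely a feature of this subcluster in quadriceps. It held 196 of the 243 Lamc3 UMIs of quadriceps FAPs (61.9 CPM, interval 53.5 to 71.2), and a subcluster of 51 cells led by Apod and Angptl7 held 16 (35.7 CPM). The other 7 quadriceps subclusters had between 0 and 6.05 CPM. The Cxcl14-led subcluster of diaphragm had 4 UMIs (1.83 CPM), although it was the diaphragm subcluster with most Lamc3. In the Apod-led subcluster Lama2 (715 CPM), Lamb1 (614 CPM) and Hspg2 (1400 CPM) were also high in quadriceps, and Fos was 3293 CPM there, against 225 CPM in the Cxcl14-led subcluster.

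The 48 quadriceps cells led by Lcn2 and Wisp2 had the lowest levels of Lama2 (224 CPM), Lama4 (119 CPM), Lamb1 (29.4 CPM), Lamc1 (288 CPM) and Hspg2 (253 CPM) in that tissue, whereas Lamb2 was highest there (564 CPM). Lamb2 itself was lowest in the Apod-led and Cxcl14-led subclusters of quadriceps, at 250 and 321 CPM, which were the subclusters with most Lamb1. Nid1 was highest in the Cmah-led subcluster (1920 CPM in quadriceps and 1762 CPM in diaphragm), which also had the most Fbn1, and lowest in the Ptn-led subcluster (649 and 558 CPM). Nid2, by contrast, was 41.9 and 40.7 CPM in the Cmah-led subcluster, near its lowest level in each tissue. The ratio of the highest to the lowest subcluster in quadriceps was 27.9 for Lamb1, 11.1 for Nid2, 6.04 for Hspg2, 3.28 for Lama2, 3.25 for Lamc1, 3.06 for Lama4, 2.96 for Nid1 and 2.25 for Lamb2. In diaphragm these ratios were smaller for Lamb1 (4.71), Nid2 (3.78) and Hspg2 (3.36), and the Lcn2-led subcluster held no diaphragm cell.

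**Figure D4:**
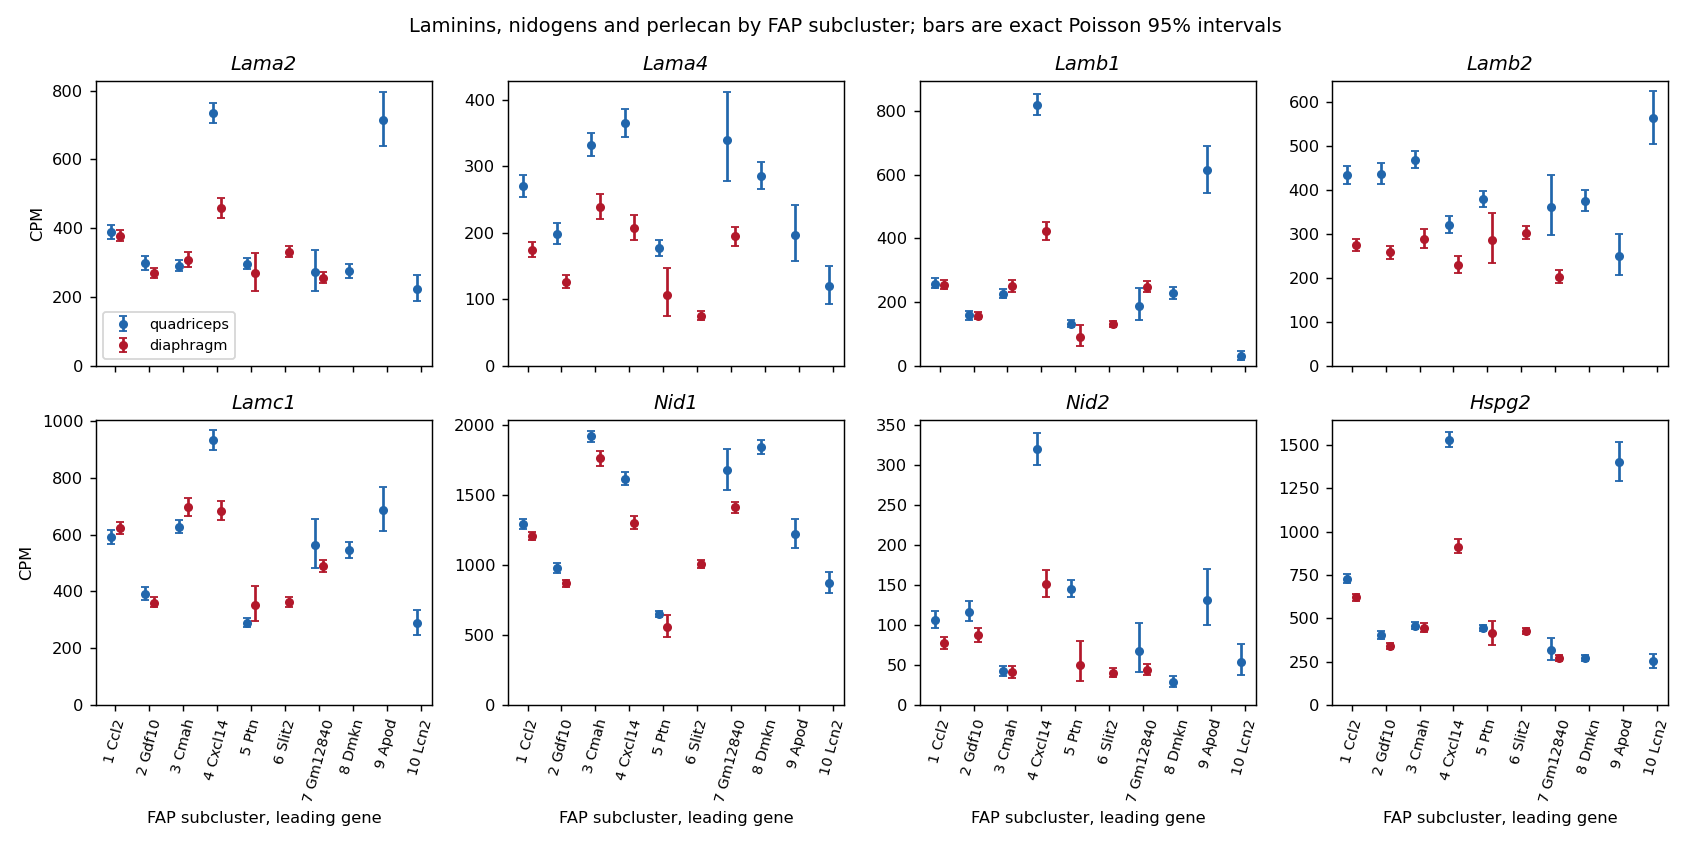
Level in CPM (vertical axis) of 8 of the genes in each FAP subcluster, given by number and leading gene on the horizontal axis, with blue points for quadriceps, red points for diaphragm and exact Poisson 95% intervals, for subclusters with at least 20 cells of a tissue. Lamb1, Lama2, Nid2 and Hspg2 peak at the Cxcl14-led subcluster, while Nid1 peaks at the Cmah-led one, at 1920 and 1762 CPM.

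The tissue difference was then read within subclusters, because the libraries filled them unequally: the Slit2-led subcluster held 13 quadriceps and 454 diaphragm cells, the Ptn-led one 496 and 33. In the 4 subclusters with at least 100 cells of each tissue, Lama4, Lamb2, Nid1 and Hspg2 were lower in diaphragm in 4 of 4, Lama2 and Lamb1 in 3 of 4, Lamc1 in 2 of 4 and Nid2 in 3 of the 3 where it passed the filter. The median over all genes tested was also below 0: -0.106, -0.0751, -0.0509 and -0.104 in the Ccl2-led, Gdf10-led, Cmah-led and Cxcl14-led subclusters. Some values counted as lower lay above that median. They were Nid1 (-0.100), Lama2 (-0.04) and Lamb1 in the Ccl2-led subcluster, Lamb1 in the Gdf10-led one and Hspg2 (-0.04) in the Cmah-led one. The other values counted as lower lay below it. The mean log2 difference was -0.64 for Lama4, -0.65 for Lamb2 and -0.65 for Nid2, and between -0.32 and -0.09 for the others. Lamb1 differed by -0.02, -0.01 and 0.15 in the Ccl2-led, Gdf10-led and Cmah-led subclusters and by -0.96 in the Cxcl14-led one (interval -1.07 to -0.85). In that subcluster Nid2 (-1.07, interval -1.26 to -0.90) and Lamc3 (-4.47) were past 2-fold, where 6.29% of 3513 genes were. Lamc3 passed the filter only through quadriceps (61.9 CPM, against 1.83 CPM in diaphragm), so its call is not read as support.

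Correlations over single cells were taken among the 8 genes found in at least 10% of gated FAPs, on log(1 + UMIs per 10000). The cells of a tissue share a library, so r is given as a description. The 28 pairs had a mean Pearson r of 0.250 in quadriceps (2339 cells) and 0.203 in diaphragm (2008 cells). Over all 33517578 pairs of 8188 detected genes the median was 0.00495 and 0.00467 and the 95th percentile 0.0505 and 0.0506, and 22 of the 28 pairs lay above that percentile in each tissue. Median UMIs per gated cell were 12 for Nid1, 5 for Hspg2 and Lamc1, 4 and 3 for Lamb2, 3 and 4 for Lama2, 2 for Lamb1, 2 and 1 for Lama4 and 1 and 0 for Nid2, in quadriceps and diaphragm, so r is limited by sparse counts and values for different genes are not on an equal footing. After thinning to 1000 UMIs the mean r was 0.0650 and 0.0379. The 95th percentile of all pairs was then 0.0377 and 0.0407, so the diaphragm mean lay below it.

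The strongest pairs joined the chains of a trimer with their linkers. Lamb1 and Hspg2 had the highest r in quadriceps, 0.511 (0.326 in diaphragm). Lamc1 and Nid1, whose products bind each other directly, had 0.505 and 0.441, the highest in diaphragm. Lamb1 had 0.472 and 0.404 with Lamc1 and 0.411 and 0.424 with Nid1. Lama2 had 0.470 and 0.274 with Lamb1 and 0.465 and 0.317 with Hspg2, and Lama4 had 0.360 and 0.365 with Lamb1. The nidogens had 0.0687 and 0.134 with each other.

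Lamb2 had low correlations with the other members. Its r with the other 7 genes lay between -0.152 and 0.0595 in quadriceps and between -0.119 and 0.0935 in diaphragm, although it was found in 92.8% and 88.7% of gated cells. The lowest value in each tissue was that with Lamb1, the other beta chain, which was also the gene with the lowest r to Lamb2 among all genes ranked over both tissues. After thinning, that r was -0.0391 in quadriceps and 0.000662 in diaphragm. In thinned quadriceps cells both beta chains were found together in 6.58% of cells, against 7.38% had they been independent, and in diaphragm in 3.93% against 3.95%, so the negative relation was not detectable at that depth in diaphragm.

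**Figure D5:**
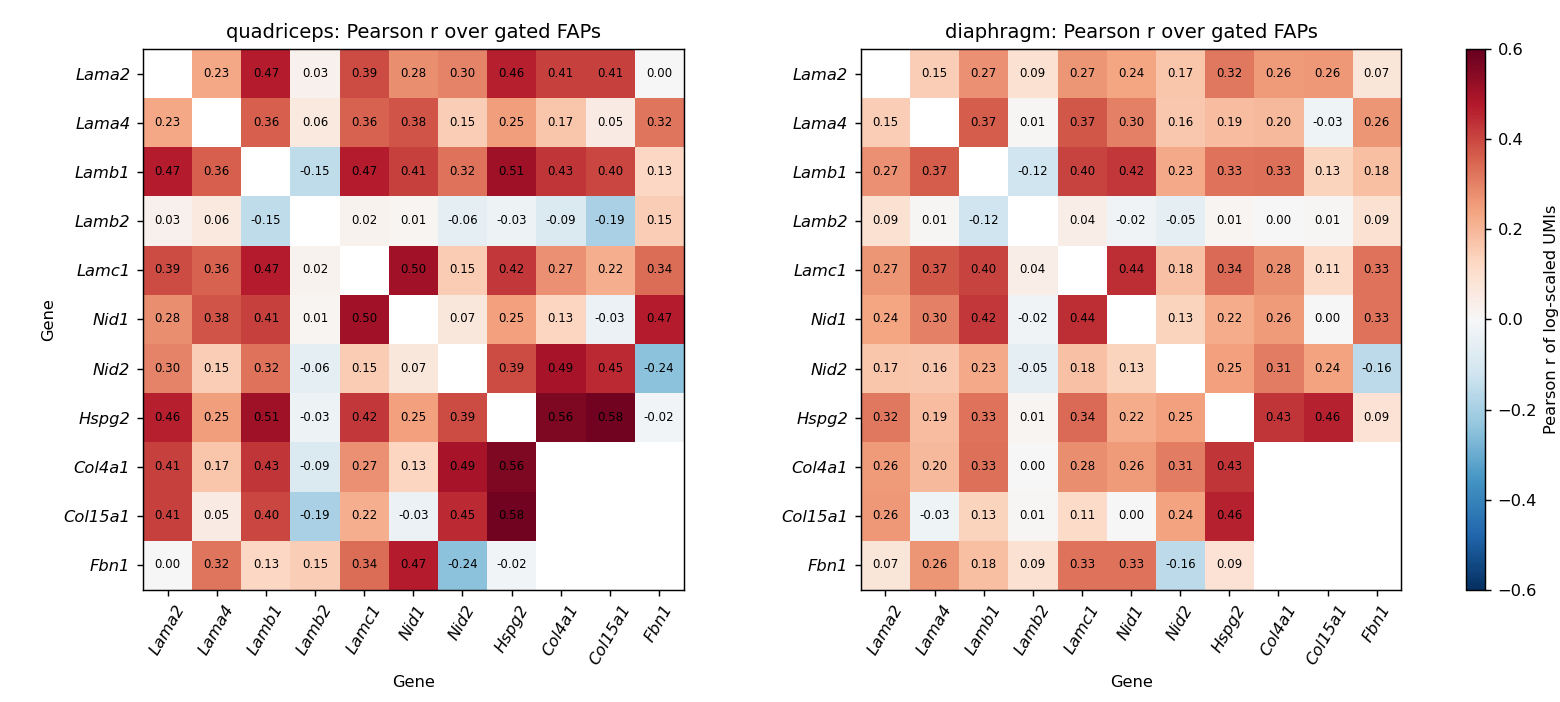
Heat maps of Pearson r over gated FAPs of quadriceps (2339 cells) and diaphragm (2008 cells) among 8 of the genes and Col4a1, Col15a1 and Fbn1, with r printed in each box and coloured from negative to positive. The Lamb2 row lies between -0.152 and 0.0935 against the other members, while Lamc1 with Nid1 reaches 0.505 and 0.441.

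The members also sorted by their relation to collagen and FAP subtype genes. Hspg2 had 0.580 and 0.461 with Col15a1 and 0.561 and 0.428 with Col4a1, and Nid2 had 0.495 and 0.309 with Col4a1. Nid1 had only 0.127 and 0.257 with Col4a1 and 0.473 and 0.327 with Fbn1, the fibrillin gene that marks a FAP subtype. Lamc1 (0.335 and 0.327) and Lama4 (0.320 and 0.264) were also positive with Fbn1, whereas Nid2 was negative (-0.244 and -0.156) and Hspg2 differed in sign between tissues (-0.0160 and 0.0870). Lum, the lumican gene of the other subtype, had 0.466 and 0.301 with Hspg2 and -0.0666 and -0.219 with Nid1. Dag1 had r between -0.0138 and 0.137 with the members in quadriceps and between 0.0166 and 0.0948 in diaphragm.

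Among all genes, ranked by the smaller r of the tissues, members were often each other's nearest genes. The gene most like Lama2 was Hspg2, the most like Lama4 was Lamb1, the most like Lamb1 was Nid1 and the most like Lamc1 was Nid1. The gene most like Nid1 was Pcsk6, a proprotein convertase (0.509 and 0.550), followed by Lamc1 and by Adamts5, a matrix protease (0.491 and 0.414). Hspg2 was most like Col15a1, the fibrillar collagen gene Col5a3 (0.564 and 0.433) and Col4a1, and Nid2 most like Hsd11b1 (0.390 and 0.311). The 3 genes most like Lamb2 were Col3a1 (0.181 and 0.190), Aspn and Ccdc80, genes of the interstitial matrix, and no member was among them. At the other end, Nid1 was least like Cst3 (-0.479 and -0.496) and Lamb1 least like Fbln1 (-0.386 and -0.273).

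Across the 15 named class and tissue combinations with at least 20 cells, which share 2 libraries, the nearest genes by Pearson r of log2 CPM were others. Lama5 was most like Bcam (0.958), Sorbs2 (0.949) and Mcam (0.945), Bcam and Mcam being the receptors named above. Hspg2 was near Lhfp (0.964) and Col4a1 (0.960), Lama2 was near Bicc1 (0.963), and Lamb1 was near Flrt2 (0.934) and Nid2 (0.918). Lama5 had r of -0.0977 with Lama2 and 0.513 with Lamb2 over the same combinations.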

How the data were processed

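The deposited values were raw counts of UMIs per gene and barcode, 1 matrix per tissue, which the authors made from reads aligned to mm10 (GRCm38). Cell Ranger 3.0.0 and Seurat are named in the submitters' processing notes. Barcodes were kept with at least 1000 UMIs and below the median plus 3 median absolute deviations of log10 UMIs. No mitochondrial limit and no doublet removal were applied, and Scrublet and a limit of 5% were alternatives. Scrublet called 1.90% of quadriceps and 0.160% of diaphragm barcodes, and its diaphragm share is too low to be relied on.

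Both libraries were clustered together without 51 listed basement membrane genes (2000 variable genes, 20 principal components, 20 neighbours, Leiden resolution 1), which gave 25 clusters. A marker was raised when found in at least 10% of cells and at least 2-fold above the other cells, and a name needed 3 raised markers, more than the raised FAP markers, and the 10 leading genes could not hold more markers of a different type. Clusters of low depth also needed a marker of their own among these, and FAP-like ones 5 FAP markers seen. Names ending in "-like" rest on these markers. FAPs were gated cells outside clusters named as another type, and were clustered again over 10 components at resolution 0.5. Levels were summed UMIs as CPM over non-mitochondrial UMIs, with exact Poisson 95% intervals. Shares had Clopper-Pearson intervals, and intervals of folds were exact conditional binomial intervals of the plain ratio. Log2 folds used a pseudocount of 1 CPM, and a count of 0 was given a limit of 3 UMIs. PCR copies were collapsed by UMI, and intervals cover counting error only. The scripts were tested on simulated data.

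The genes and lists, the FAP gate and the markers were chosen with earlier results of these data known. Genes named in the text were the 10 genes, members of fixed lists, the nearest genes by correlation and the leading genes of clusters, and other markers of the endothelial-like clusters were named after their values were seen. Python 3.11.15, scanpy 1.11.5, SciPy 1.17.1 and leidenalg 0.10.2 were used. Proteins and promoters of 4 genes were not used here. A member of the list of other laminin chains is not reported here.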

Additional observations from a re-analysis of the deposited data

Results flagged for a closer look

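Levels in clusters that no comparison used are given because they exceeded the limit that a count of 0 allows. A cluster led by Hbb-bs stayed unnamed, with 144 quadriceps and 60 diaphragm cells and a median mitochondrial share of 95.6% and 23.5%. All 10 FAP markers were found in it, with a sum of 9128 CPM in quadriceps and 29072 CPM in diaphragm, and the 5 erythroid markers summed to 422917 CPM in quadriceps and were all at 0 in diaphragm. In its quadriceps cells Lama2 was 154 CPM, Lama4 109 CPM, Lama5 36.2 CPM, Lamb1 127 CPM, Lamb2 154 CPM, Lamc1 308 CPM, Nid1 317 CPM, Nid2 63.4 CPM and Hspg2 543 CPM. In its diaphragm cells Lama2 was 831 CPM, Lama4 409 CPM, Lamb1 458 CPM, Lamb2 506 CPM, Lamc1 915 CPM, Nid1 1698 CPM, Nid2 217 CPM and Hspg2 2095 CPM, and all 8 of these levels were above those of diaphragm FAPs.

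A second unnamed cluster, led by Rgs5, held 140 quadriceps cells with a median mitochondrial share of 58.5%. Of the 8 smooth muscle markers 6 were raised in the cluster, with a sum of 40074 CPM in its quadriceps cells, where the pericyte markers summed to 4330 CPM. Lama5 was 308 CPM there (78 UMIs, interval 243 to 384), above the 151.4 CPM of smooth muscle-like cells of quadriceps. Lama2 was 15.8 CPM, Lama4 114 CPM, Lamb1 19.7 CPM, Lamb2 596 CPM, Lamc1 197 CPM, Nid1 67.0 CPM, Nid2 15.8 CPM and Hspg2 469 CPM.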

How the results depend on the processing

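No paired analysis was possible because each tissue had 1 library and no result came from a test. With at most 5% mitochondrial UMIs no smooth muscle-like class was found, so its levels and shares had no value there, and the Lama2 share of FAP alpha chain UMIs was 57.0% in quadriceps and 66.6% in diaphragm. When the libraries were clustered separately the diaphragm share was 63.7%, and the shares of Lama5 and Lamb2 in quadriceps smooth muscle-like cells were 71.9% and 99.5%. With Scrublet calls left out these were 72.1% and 99.6%, and with gated cells left out of the class, 71.9% and 99.4%. Without the filter on level, 1 of the 10 genes (Lamc3) and 946 of all genes were past 2-fold between tissues in FAPs. Members lower in diaphragm numbered 7 to 10 over 14 alternatives, and log2 differences ranged from -0.80 to -0.53 for Lama4 and from -0.72 to -0.53 for Lamb2. The mean r was 0.0650 and 0.0379 in thinned cells, and 0.177 in quadriceps with each gene centred within subclusters. The r of Lamb1 with Lamb2 in diaphragm turned positive in thinned cells (0.000662). The log2 difference of Lama5 between smooth muscle-like cells and FAPs of quadriceps lay between 3.88 and 7.13 with the pseudocount at 10 or 0.1 CPM. Leaving out gated cells or the Thbs4-led and Slpi-led clusters, averaging within subclusters, centring, and adjusting for depth were chosen after seeing the data. The cause of these shifts was not tested. Depth limits Lama5 and Lamc3 in FAPs, and all genes in classes of few cells.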
